A study of Mus musculus with 14 samples.

Results

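The 10 genes described here encode secreted antimicrobial and acute phase proteins that are measured as signs of gut inflammation: S100A8, S100A9, LCN2, SLPI, SAA3, LYZ1, LYZ2, LTF, CAMP and NGP. They were chosen by name, with earlier results of these data known, and all 10 were present among the 24982 genes of the count table. RNA was measured in macrophages of the colonic lamina propria, sorted as CD45+ Ly6G- CD103- CD64+ CD11b+ MHCII+ Ly6C- cells from 5-week-old C57BL/6 mice that all carried Cdcs1, a locus that confers susceptibility to colitis. WT mice carried no further deletion (5 mice), IL10RAKO mice lacked the IL-10 receptor alpha chain (Il10ra -/-, 4 mice), DKO mice lacked both this receptor and the chemokine receptor CCR2 (Il10ra -/- Ccr2 -/-, 4 mice), and CCR2KO was a single Ccr2 -/- mouse. Each library came from 1 mouse, the deletions were germline, and animals of both sexes were used. The comparisons ask how loss of IL-10 receptor signalling, with or without CCR2, went along with these transcripts in mature macrophages.

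S100A8 and S100A9 form calprotectin, a complex that withholds zinc and manganese from microbes and is released in large amounts by neutrophils. LCN2 binds the iron carriers of bacteria, LTF binds iron itself, and lysozymes (LYZ1, LYZ2) cut the bacterial cell wall. In mice LYZ2 is the lysozyme of macrophages and LYZ1 is the lysozyme of Paneth cells, the antimicrobial cells of the small intestinal crypt. SLPI inhibits serine proteases of neutrophils, SAA3 is the serum amyloid A made outside the liver, and LTF, CAMP (the cathelicidin precursor) and NGP are loaded into neutrophil granules while these cells mature in the bone marrow.

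The upstream sequences of 6 members are shown because they come from members with different patterns across the genotypes, and because the closely related LYZ1 and LYZ2 can be compared base by base. They were taken from RefSeq (GRCm38.p6) as the 250 bases before the transcription start, written 5′ to 3′ along the gene's strand and trimmed where they ran into the gene as GENCODE draws it. Capitals mark a match to the C/EBP motif (TTGCNNAA or TTACNNAA) or to the NF-kB motif (GGANNTTCC), in either orientation.
S100a9 upstream sequence, chr3:90695722-90695971, minus strand: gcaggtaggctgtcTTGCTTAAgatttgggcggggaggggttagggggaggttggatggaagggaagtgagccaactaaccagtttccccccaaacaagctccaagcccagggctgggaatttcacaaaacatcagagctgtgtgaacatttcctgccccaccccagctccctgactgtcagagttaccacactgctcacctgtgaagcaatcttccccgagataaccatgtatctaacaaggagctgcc
Saa3 upstream sequence, chr7:46715701-46715926, minus strand: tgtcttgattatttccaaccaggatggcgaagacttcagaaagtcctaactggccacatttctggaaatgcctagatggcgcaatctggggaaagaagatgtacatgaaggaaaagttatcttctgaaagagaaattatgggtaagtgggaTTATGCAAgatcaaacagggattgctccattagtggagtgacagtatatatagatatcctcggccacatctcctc
Lyz1 upstream sequence, chr10:117292869-117293118, minus strand: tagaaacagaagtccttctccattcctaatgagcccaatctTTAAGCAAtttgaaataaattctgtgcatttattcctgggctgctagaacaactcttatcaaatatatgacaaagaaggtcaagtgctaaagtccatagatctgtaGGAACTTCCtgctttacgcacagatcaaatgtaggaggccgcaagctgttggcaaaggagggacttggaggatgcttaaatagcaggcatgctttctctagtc
Lyz2 upstream sequence, chr10:117282322-117282522, minus strand: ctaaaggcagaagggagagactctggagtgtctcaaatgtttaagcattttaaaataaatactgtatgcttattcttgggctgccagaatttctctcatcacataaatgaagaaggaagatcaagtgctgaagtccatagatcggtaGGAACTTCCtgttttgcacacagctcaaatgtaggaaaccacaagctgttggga
Ltf upstream sequence, chr9:111019042-111019270, plus strand: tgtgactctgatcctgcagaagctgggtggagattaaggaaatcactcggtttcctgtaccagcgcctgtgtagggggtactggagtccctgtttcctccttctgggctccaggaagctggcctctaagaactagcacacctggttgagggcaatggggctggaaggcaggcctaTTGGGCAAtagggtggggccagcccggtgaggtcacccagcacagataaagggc
Ngp upstream sequence, chr9:110419558-110419746, plus strand: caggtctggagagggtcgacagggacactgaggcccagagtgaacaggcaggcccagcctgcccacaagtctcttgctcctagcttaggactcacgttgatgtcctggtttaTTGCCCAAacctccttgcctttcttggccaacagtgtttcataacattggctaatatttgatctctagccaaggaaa

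The C/EBP motif was found within these 250 bases in 7 of the 10 members (S100A9, LCN2, SLPI, SAA3, LYZ1, LTF and NGP) and in 16.5% of the 32851 RefSeq promoters. In SAA3 the match lay 99 to 92 bases before the start, and in LTF 75 to 68 bases before it. NGP held a match 138 to 131 bases before the start and another 11 to 4 bases before it, which lies in the trimmed part. The NF-kB motif was found in 2 members, LYZ1 and LYZ2, at the same place (103 to 95 bases before the start), and in 3.59% of all promoters. A STAT motif (TTCNNNGAA) and a PU.1 motif (AGAGGAAG), searched on both strands, were found in 0 members and in 7.02% and 3.67% of all promoters, and TATAAA on the gene's strand was found in S100A8 alone and in 7.59%. Such matches describe letters and say nothing about binding.

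Between 12153000 and 21216468 reads per library were counted on genes. Expression is given as CPM, counts per total counts of the library after TMM scaling, which corrects for composition. Genotypes were compared in a single edgeR quasi-likelihood fit of 12 libraries (4 WT, 4 IL10RAKO and 4 DKO mice) over 13136 genes, with p-values adjusted by the Benjamini-Hochberg method over all of them. WT mouse 11, which is not among the 12 libraries of the authors' normalized table, and the unreplicated CCR2KO mouse 6 entered no test. The targeted genes followed the labels in every library. IL10RA lay between 217.0 and 379.6 CPM in the 4 WT mice, at 307.5 in WT mouse 11 and at 181.9 in CCR2KO mouse 6. In IL10RAKO mice it lay at 4.89 to 11.2 CPM and in DKO mice at 3.41 to 7.59 CPM. CCR2 lay between 361.0 and 759.0 CPM in mice with the gene and between 3.92 and 6.68 CPM in DKO and CCR2KO mice. The 12 macrophage markers examined summed to 43670 to 71339 CPM over these 12 libraries, with FCGR1 (CD64) at 102 ± 28.4, 180.4 ± 51.5 and 125 ± 23.8 CPM in WT, IL10RAKO and DKO mice (mean ± SD, n = 4 each). Most of this sum was CD74 (23358, 26646 and 24710 CPM on average) and H2-AB1 (15868, 24213 and 20216 CPM). It is thus no measure of purity.

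Loss of the IL-10 receptor went with higher levels of calprotectin, SLPI and SAA3, with or without CCR2, and no member passed as lower in both knockouts. Of the 9 members that passed the filter on low counts, 5 were higher in IL10RAKO than in WT mice (S100A8, S100A9, SLPI, SAA3 and NGP), and 0 were lower, where 8.7% and 7.1% of all tested genes were called higher and lower. In DKO against WT mice, 6 of 9 were higher (the same 5 and LTF) and 1, LYZ1, was lower, where 9.23% and 9.22% of all genes were called. The median log2 fold change of the 9 members was 3.26 in IL10RAKO and 3.84 in DKO mice, beside -0.07 and -0.06 for all tested genes. Both comparisons use the same WT mice. S100A8, S100A9, LTF and NGP were low or absent in WT mice and passed the filter through knockout mice. They could hardly be called lower, so these counts and medians are descriptions only. CAMP did not pass the filter and was tested separately. Where all mice of a knockout are said below to lie above or below all WT mice, this is a description. The share of all genes separated from WT in this way was not counted.

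**Figure D1:**
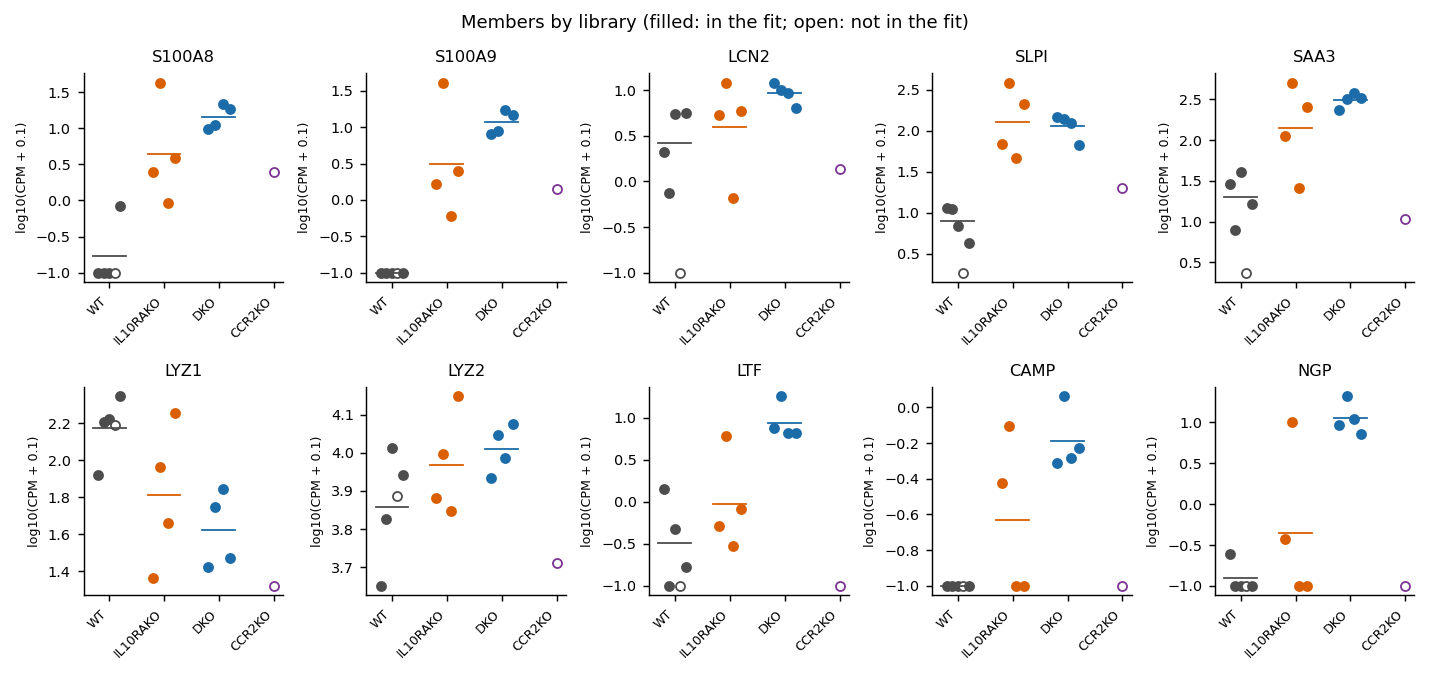
Each panel plots one gene as log10(CPM + 0.1) by genotype, with a point for each mouse (filled in the fit, open for WT mouse 11 and CCR2KO mouse 6) and a line at the mean of the filled points. The DKO points of S100A8 and NGP lie close together and above WT, the IL10RAKO points of both genes spread widely with mouse 2 at the top, and LYZ2 differs little between genotypes.

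The calprotectin genes are neighbours on chromosome 3 (GRCm38), S100A8 at 90668978 to 90670035 and S100A9 at 90692632 to 90695721. S100A8 reads were counted in 1 of the 4 WT mice (mouse 13, 11 reads, 0.732 CPM) and were 0 in mice 4, 5 and 10. IL10RAKO mice 1, 2, 7 and 8 had 2.37, 42.8, 0.809 and 3.76 CPM, and DKO mice 3, 9, 12 and 14 had 9.83, 11.0, 21.4 and 18.2 CPM. All 8 knockout mice lay above every WT mouse, but IL10RAKO mouse 2 lay far above the other 3 of its genotype. S100A8 was higher by 6.27 on the log2 scale in IL10RAKO (SE 1.38, edgeR adjusted p = 0.00639) and by 6.55 in DKO mice (SE 1.39, adjusted p = 0.0045), a size that rests on the 11 WT reads. Without WT mouse 13 every WT library was at 0, and the means were at least 84.2-fold and 102.3-fold higher against the floor of 3 reads per library.

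S100A9 had 0 reads in every WT mouse, mouse 11 included. The IL10RAKO mice had 1.53, 40.8, 0.506 and 2.38 CPM in the same order, and the DKO mice had 8.01, 8.9, 16.9 and 14.5 CPM. Against a floor of 3 reads per WT library, the mean was at least 70.3-fold higher in IL10RAKO (adjusted p = 0.00476) and at least 75.1-fold higher in DKO mice (adjusted p = 0.00407). Without IL10RAKO mouse 2, the log2 fold change of S100A8 in IL10RAKO against WT was 3.82 (adjusted p = 0.0285), and the S100A9 mean of the other 3 mice was at least 9.15-fold above the floor (adjusted p = 0.000677). In a comparison chosen after the values were seen, as were the other ratios below, S100A9 reads per S100A8 read lay between 0.79 and 0.815 in DKO mice and between 0.625 and 0.952 in IL10RAKO mice.

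Of the iron-withholding proteins, LCN2 (chromosome 2, 32384633 to 32388252) did not pass in any comparison. It lay at 2.0, 0.645, 5.34 and 5.59 CPM in WT mice 4, 5, 10 and 13, at 5.22, 11.9, 0.556 and 5.88 CPM in the IL10RAKO mice and at 12.0, 9.9, 9.35 and 6.28 CPM in the DKO mice. The 4 DKO mice lay above the 4 WT mice, while IL10RAKO mice overlapped both. The log2 fold change was 1.46 in DKO against WT mice (SE 0.70, adjusted p = 0.173) and 0.79 in IL10RAKO against WT mice (SE 0.70, adjusted p = 0.495).

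LTF (lactoferrin; chromosome 9, 111019271 to 111042767) lay at 1.34, 0, 0.373 and 0.0666 CPM in WT mice 4, 5, 10 and 13. IL10RAKO mice had 0.418, 5.92, 0.202 and 0.727 CPM, and DKO mice had 7.4, 18.1, 6.47 and 6.43 CPM. The DKO mice lay above all 8 other mice, and IL10RAKO mice other than mouse 2 lay within the WT range. LTF was higher by 4.36 on the log2 scale in DKO than in WT mice (SE 1.13, adjusted p = 0.0151), while IL10RAKO against WT gave 1.97 (SE 1.07, adjusted p = 0.243). Without DKO mouse 9, the mouse with the most LTF, the DKO call was lost (log2 fold change 3.88, adjusted p = 0.0545), and without WT mouse 4, the WT mouse with the most, it was 5.82 (adjusted p = 0.00528).

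The granule proteins NGP and CAMP were close to absent from WT libraries. NGP (chromosome 9, 110419747 to 110423012) had 3 reads in WT mouse 4 and 0 in the other WT mice. It had 4, 163, 0 and 0 reads in IL10RAKO mice 1, 2, 7 and 8 (0.278, 10.2, 0 and 0 CPM), and 167, 337, 157 and 145 reads in DKO mice 3, 9, 12 and 14 (9.22, 20.98, 11.0 and 7.17 CPM). Nearly all IL10RAKO reads thus came from mouse 2. The ratio of summed reads to WT was 65.7 in IL10RAKO (95% interval 22.1 to 322, exact, counting error only) and 302.1 in DKO mice (103.0 to 1468). NGP passed against WT in IL10RAKO (adjusted p = 0.0361) and in DKO mice (adjusted p = 0.00612). The IL10RAKO call rested on mouse 2, since without it the log2 fold change was 1.02 (adjusted p = 0.674), and it was also lost without any of the 4 WT mice (adjusted p between 0.0541 and 0.0863).

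CAMP (chromosome 9, 109847379 to 109849617) had 0 reads in every WT mouse, 4, 11, 0 and 0 reads in the IL10RAKO mice and 7, 17, 6 and 10 reads in the DKO mice. The DKO mice lay above all WT mice, and its mean was at least 3.67-fold higher than the floor of 3 reads per WT library. The difference in log2(CPM + 1) was 0.65 in DKO against WT mice (two-sided exact permutation test, p = 0.0286, the smallest that 4 mice against 4 can give, n = 4 each) and 0.28 in IL10RAKO against WT mice (exact permutation test, p = 0.429). DKO against IL10RAKO mice gave 0.37 (exact permutation test, p = 0.2). These are 3 tests of 1 gene without adjustment.

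SLPI (chromosome 2, 164354070 to 164389095) showed the smallest adjusted p-values of the members against WT. It lay at 11.2, 11.1, 6.83 and 4.2 CPM in WT mice 4, 5, 10 and 13, at 69.5, 384.5, 45.9 and 213.6 CPM in IL10RAKO mice 1, 2, 7 and 8, and at 148.1, 140.4, 123.9 and 67.4 CPM in DKO mice 3, 9, 12 and 14. Each knockout mouse lay above each WT mouse. SLPI was higher by 4.42 on the log2 scale in IL10RAKO (SE 0.61, adjusted p = 0.000208) and by 3.84 in DKO mice (SE 0.59, adjusted p = 0.00044). Without IL10RAKO mouse 2 the IL10RAKO value was 3.72 (adjusted p = 0.000389).

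SAA3 (chromosome 7, 46711998 to 46715700) lay at 28.9, 7.8, 40.8 and 16.2 CPM in the WT mice, at 111.1, 505.0, 25.9 and 257.7 CPM in the IL10RAKO mice and at 235.0, 321.3, 375.7 and 324.3 CPM in the DKO mice, in the same order of mice. IL10RAKO mouse 7 lay within the WT range and all DKO mice lay far above it. SAA3 was higher by 3.26 on the log2 scale in IL10RAKO (SE 0.69, adjusted p = 0.00498) and by 3.74 in DKO mice (SE 0.71, adjusted p = 0.00196). Without IL10RAKO mouse 2 the IL10RAKO value was 2.49 (adjusted p = 0.0183). SAA1, a serum amyloid A of the liver, averaged 1.32 ± 2.19, 0.743 ± 0.805 and 0.935 ± 0.437 CPM in WT, IL10RAKO and DKO mice (n = 4 each) and did not pass.

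The lysozymes lie in tandem on chromosome 10, LYZ2 at 117277331 to 117282321 and LYZ1 at 117287797 to 117292868. Their main transcripts are identical at 91.95% of aligned positions, with a longest shared run of 118 bases, and 0 of the 1114 stretches of 150 bases in LYZ1, the length of a read, occur unchanged in LYZ2. Reads that differ by few bases may still have been assigned to the wrong copy, so that the LYZ1 values are uncertain. Over the untrimmed 250 bases upstream of each, 200 of 252 aligned positions were identical.

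LYZ2 lay at 4473, 6703, 10290 and 8771 CPM in WT mice 4, 5, 10 and 13, at 7617, 9933, 7020 and 14104 CPM in the IL10RAKO mice and at 8570, 11172, 9682 and 11914 CPM in the DKO mice. The genotypes overlapped, and the log2 fold change was 0.36 in IL10RAKO (95% interval -0.21 to 0.92, adjusted p = 0.399) and 0.45 in DKO against WT mice (-0.11 to 1.01, adjusted p = 0.262). LYZ1 lay at 83.8, 161.1, 166.9 and 222.9 CPM in WT mice, at 23.0, 92.4, 45.7 and 180.7 CPM in IL10RAKO mice and at 26.4, 55.9, 69.6 and 29.6 CPM in DKO mice. Every DKO mouse lay below every WT mouse. LYZ1 was lower in DKO than in WT mice (log2 fold change -1.81, SE 0.52, adjusted p = 0.0267), and IL10RAKO against WT gave -0.89 (SE 0.51, adjusted p = 0.268). The DKO call was lost without DKO mouse 3, 9 or 14 or without WT mouse 13 (adjusted p between 0.0534 and 0.0806). LYZ1 reads per 100 LYZ2 reads lay between 1.62 and 2.54 in the 5 WT mice, between 0.302 and 1.28 in IL10RAKO mice, between 0.249 and 0.719 in DKO mice and at 0.406 in CCR2KO mouse 6. Of the 7 Paneth cell markers none could be tested, and the defensins DEFA24, DEFA30 and DEFA17 had 0 reads in all 12 libraries of the fit.

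**Figure D2:**
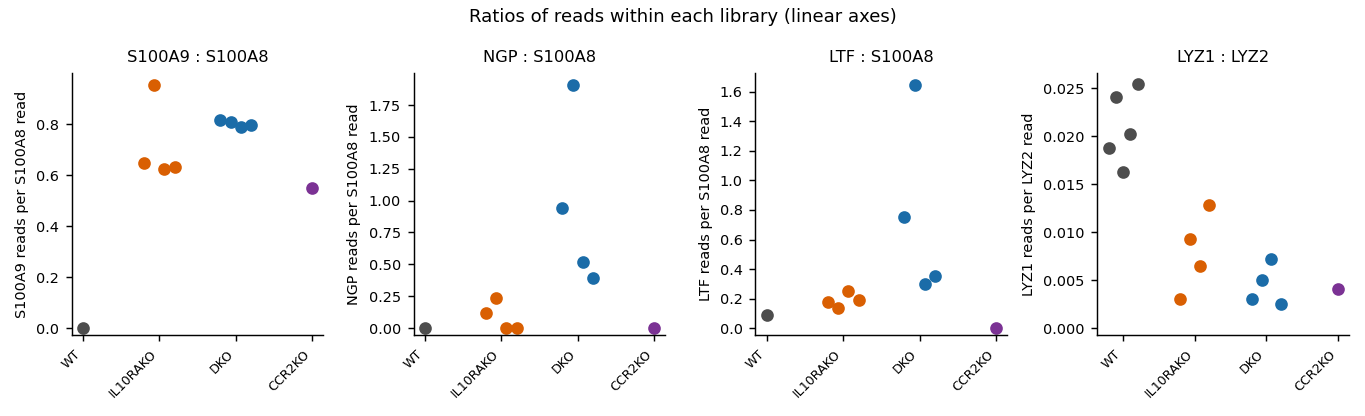
Reads of one member per read of another within each library, on linear axes, with a point for each mouse that had enough reads (for the S100A8 ratios the only WT point is mouse 13 with 11 S100A8 reads). NGP per S100A8 lies at 0.237 or below in IL10RAKO and at 0.394 or above in DKO mice, and LYZ1 per LYZ2 is higher in WT mice than in all others.

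Per kilobase of the main transcript, LYZ2 was the most abundant member in each genotype (5744 ± 1922 CPM per kb in WT, 7347 ± 2442 in IL10RAKO and 7853 ± 1139 in DKO mice, mean ± SD, n = 4 each), and its range did not overlap that of any other member. In WT mice LYZ1 followed at 126 ± 45.3, then SAA3 at 42.2 ± 26.1 and SLPI at 9.51 ± 3.91 CPM per kb. In DKO mice the order was SAA3 at 566 ± 105, SLPI at 137 ± 41.6, LYZ1 at 35.9 ± 16.5, S100A8 at 31.1 ± 11.5 and S100A9 at 23.3 ± 8.33 CPM per kb, where the ranges of LYZ1, S100A8 and S100A9 overlapped from neighbour to neighbour. LCN2, NGP, LTF and CAMP followed in that order, at 10.3 ± 2.6, 9.9 ± 5.01, 3.5 ± 2.08 and 0.779 ± 0.416 CPM per kb. In IL10RAKO mice all neighbours below LYZ2 overlapped.

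Adding the loss of CCR2 to that of the IL-10 receptor changed no member past the threshold. In DKO against IL10RAKO mice 0 of 9 members passed in edgeR at an adjusted p of 0.05, where 0.0457% of all genes were called, and 0 of the 8 with an adjusted p in DESeq2, which gave none for LTF or CAMP. At an unadjusted p under 0.05, 1 member (LTF) was found, where 2.95% of all genes were. LTF was also the 1 tested member whose DKO values all lay above the IL10RAKO values, as did those of 1.13% of all genes. Its log2 fold change was 2.40 (95% interval 0.21 to 4.59, edgeR adjusted p = 1.00). NGP gave 2.21 (-0.40 to 4.82), LCN2 0.68 (-0.80 to 2.15), SAA3 0.48 (-0.87 to 1.83), S100A8 0.28 (-1.82 to 2.38), S100A9 0.10 (-2.14 to 2.33) and LYZ2 0.10 (-0.46 to 0.66). SLPI gave -0.57 (-1.70 to 0.55) and LYZ1 -0.91 (-2.01 to 0.18). These intervals leave room for several-fold differences in either direction for the calprotectin genes.

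IL10RAKO mouse 2 decided much of this comparison. Without it, NGP was higher in DKO than in IL10RAKO mice by 7.05 on the log2 scale (edgeR adjusted p = 0.0362), LTF by 4.42 (adjusted p = 0.426), S100A9 by 3.04 (adjusted p = 0.26) and S100A8 by 2.71 (adjusted p = 1.00). Mouse 2 carried 688 of the 795 S100A8 reads, 655 of the 723 S100A9 reads, 163 of the 167 NGP reads and 95 of the 116 LTF reads of its genotype. The NGP size without mouse 2 rests on 4 reads in IL10RAKO mouse 1, as mice 7 and 8 had 0. Mouse 2 was singled out for its high values of these genes, so the p-values without it are descriptions only. The highest S100A8 level was 2.18 times the lowest in DKO mice and 53.0 times in IL10RAKO mice, or 4.65 times without mouse 2, and for SAA3 the figures were 1.6, 19.5 and 9.93 times. This difference in spread was not tested.

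**Figure D3:**
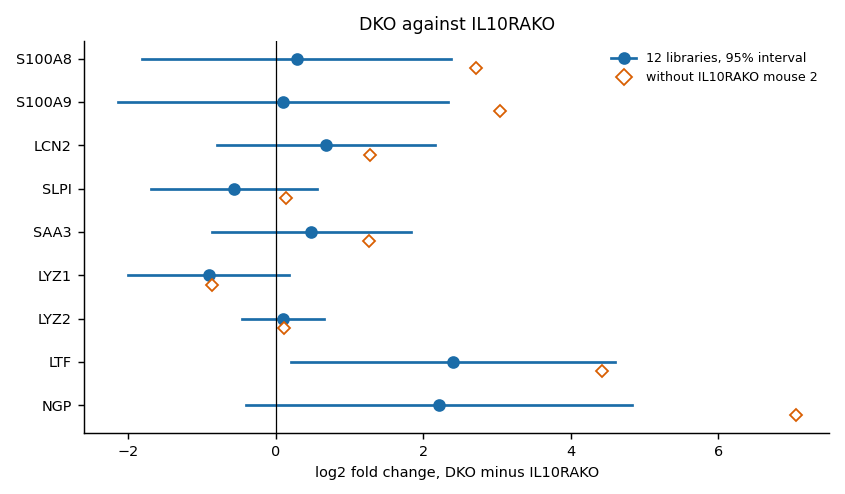
The log2 fold change of each tested member in DKO minus IL10RAKO mice, with its 95% interval from the 12 libraries (circles and lines) and the value without IL10RAKO mouse 2 (diamonds). The intervals include 0 for all but LTF, and without mouse 2 the values of S100A8, S100A9, LTF and NGP move to between 2.71 and 7.05.

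LTF, CAMP and NGP all lie on the same chromosome as CCR2, 13.06, 14.25 and 13.68 Mb from it, and DKO mice carry a targeted CCR2 allele made in another strain. The part of this linkage in their levels was not tested. In CCR2KO mouse 6, which carries the same allele without loss of the IL-10 receptor, all 3 genes had 0 reads. In the WT mice of the fit these genes were low or absent too (LTF 0 to 28, CAMP 0, NGP 0 to 3 reads). This unreplicated library is therefore no test of the linkage.

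Neutrophils hold much calprotectin, LTF, CAMP and NGP RNA or protein, and the sort had removed Ly6G+ cells, so neutrophil markers were examined in the same libraries. Of 16 markers of mature neutrophils, 7 of the 11 tested were higher and 1 (MMP9) was lower in IL10RAKO than in WT mice, and 7 were higher and 0 lower in DKO mice. Their sum was 472.7 to 550.6 CPM for WT, 1361 to 2125 for IL10RAKO and 1402 to 1844 for DKO libraries. Most of it was MXD1, a repressor of MYC targets (293 ± 55.1, 1304 ± 229 and 1076 ± 204 CPM in WT, IL10RAKO and DKO mice, n = 4 each), which was thus also plain in WT macrophages. The other 15 genes summed to 166.2 to 251.7 CPM for WT, 294.9 to 577.6 for IL10RAKO and 465.35 to 514.4 for DKO libraries. Without MXD1, too, the WT range did not overlap those of the knockouts. HDC, which makes histamine, rose from 1.17 ± 0.896 to 86.1 ± 40.6 and 80.3 ± 26.4 CPM (adjusted p = 6.48e-06 and 6.46e-06), and TREML4 from 32.8 ± 6.79 to 92.1 ± 30.9 and 79.4 ± 15.8 CPM (adjusted p = 0.000879 and 0.00225).

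The other mature markers that passed included CXCR2, the chemokine receptor of neutrophils (0.0414 ± 0.0828, 0.882 ± 0.415 and 1.53 ± 0.802 CPM, adjusted p = 0.0179 and 0.00588), MMP8 (4.15 ± 2.59, 27.3 ± 13.5 and 36.5 ± 12.7 CPM, adjusted p = 0.00295 and 0.00101) and CSF3R, the receptor of G-CSF (87.3 ± 20.3, 198 ± 44.5 and 181 ± 39.7 CPM, adjusted p = 0.00219 and 0.0042). CD177 and RETNLG passed in neither knockout (5.18, 3.76 and 6.39 CPM, and 3.82, 5.18 and 5.13 CPM on average in WT, IL10RAKO and DKO mice). PADI4 did not pass either, at 2.56, 0.587 and 0.543 CPM. Of the 16 mature markers 5 (LY6G, CXCR1, STFA2, STFA2L1 and BC100530) had at most 12 reads in any of the 12 libraries. LY6G itself had 0, 1, 0 and 0 reads in WT mice 4, 5, 10 and 13, 0, 12, 0 and 1 in IL10RAKO mice 1, 2, 7 and 8, and 10, 10, 1 and 6 in DKO mice 3, 9, 12 and 14. LY6G was highest in IL10RAKO mouse 2, the mouse with the most NGP of its genotype. DKO mouse 12 had 1 LY6G read beside 157 NGP reads, and CCR2KO mouse 6 had 5 LY6G reads beside 0 NGP reads. These mice were picked after their values were seen and the LY6G counts are small. The source of the NGP reads was not tested. Of 12 markers of granules and precursors, 1 of 5 tested (FCNB) was higher and 1 (ANXA1) was lower in each knockout than in WT mice, and the sum was 182.2 to 261.2 CPM for WT, 114.1 to 138.8 for IL10RAKO and 97.2 to 123.9 for DKO libraries. Nearly all of this sum was ANXA1, which is not confined to neutrophils (202 ± 36, 120.0 ± 8.91 and 97.8 ± 11.0 CPM in WT, IL10RAKO and DKO mice). The other 11 genes summed to 4.49 to 12.4 CPM for WT, 5.16 to 11.5 for IL10RAKO and 7.73 to 17.2 for DKO libraries, ranges that overlap. PGLYRP1 was the largest part of this rest (4.56, 5.24 and 6.48 CPM on average), so the sum says little about rarer genes. CHIL1 averaged 0.26, 0.851 and 1.87 CPM and did not pass in IL10RAKO or DKO against WT mice (edgeR adjusted p = 0.287 and 0.0697). Of the primary granule genes, MPO, ELANE and CTSG had 0 reads in all 4 WT mice and 18, 3 and 8 reads in DKO mouse 3. Beyond that mouse, only IL10RAKO mouse 2 (2 ELANE reads) and DKO mouse 9 (1 MPO read) had any. The protease PRTN3 was read in every library (WT 26 to 66 reads, IL10RAKO 12 to 41, DKO 18 to 32) and did not pass. FCNB had 0 reads in WT mice, 1, 14, 0 and 8 in IL10RAKO and 18, 9, 10 and 27 in DKO mice. NGP reads per S100A8 read were not constant, at 0.118, 0.237, 0 and 0 in IL10RAKO mice and 0.938, 1.9, 0.515 and 0.394 in DKO mice. The mean level of the 11 tested mature neutrophil markers was then added to the fit as a covariate, without the 5 that had few reads. With it, 0 of 9 members passed against WT in either knockout, beside 311 and 155 of all genes in IL10RAKO and DKO mice. That level did not overlap between WT and knockout mice, so that genotype and marker level cannot be told apart. In bulk libraries more cells of a type and more RNA per cell cannot be told apart either.

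**Figure D4:**
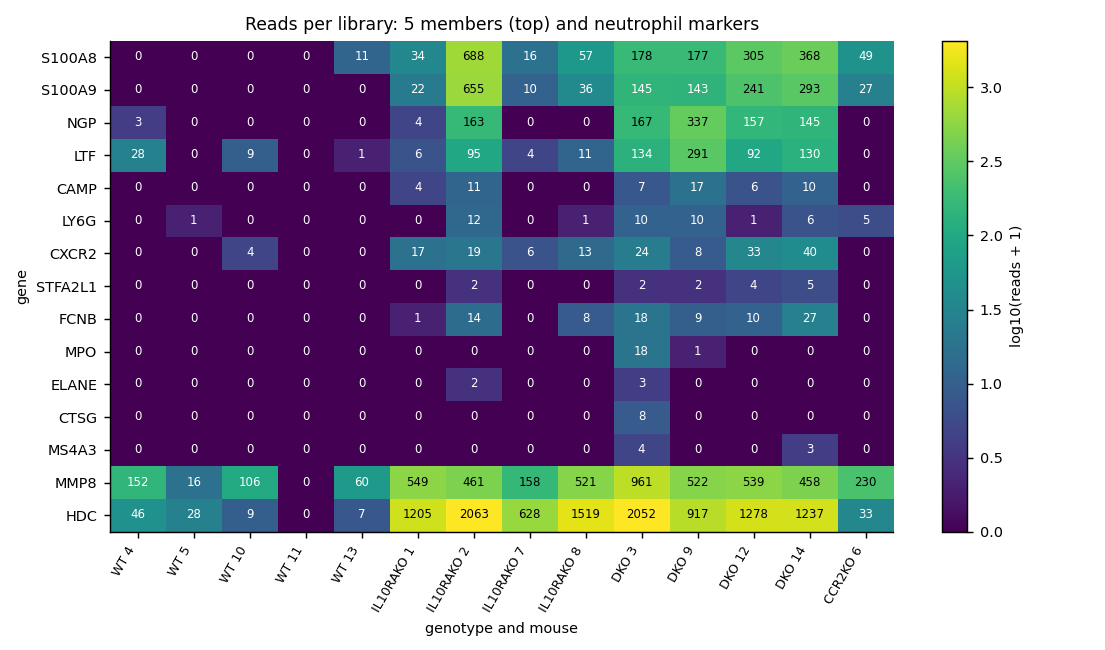
Reads on 5 members and 10 neutrophil markers (rows) in all 14 libraries (columns, by genotype and mouse), with the read number in each cell and colour for log10(reads + 1). LY6G, MPO, ELANE, CTSG and MS4A3 stay at 18 reads or fewer, while MMP8 and HDC have at least 158 and 628 reads in each IL10RAKO and DKO mouse.

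Markers of other cells moved with genotype as well. All 6 fibroblast markers tested were lower in each knockout, for example DCN, a matrix proteoglycan, at 65.2 ± 10.9, 5.23 ± 2.45 and 4.83 ± 1.1 CPM in WT, IL10RAKO and DKO mice, and their sum was 294.2 to 577.1 CPM for WT, 15.0 to 53.7 for IL10RAKO and 16.1 to 67.0 for DKO libraries. Of 12 epithelial markers tested, 0 were higher and 1 (PHGR1) was lower in IL10RAKO mice, and 2 (MUC2 and PHGR1) were lower in DKO mice, with sums of 141.6 to 1770 CPM for WT, 52.8 to 242.5 for IL10RAKO and 190.4 to 309.5 for DKO libraries. Of 12 monocyte markers, 6 were higher and 1 (F13A1) was lower in each knockout, among them LY6C2 at 6.5 ± 0.803, 109 ± 57.7 and 81.8 ± 7.71 CPM and PLAC8 at 92.4 ± 20.3, 493 ± 227 and 365 ± 82.9 CPM. Of 6 lymphoid and plasma cell markers tested, 0 passed in IL10RAKO and 1 (NKG7) was higher in DKO mice, with the B cell gene CD79A at 336 ± 202, 267 ± 107 and 306 ± 180.2 CPM and JCHAIN at 384 ± 232, 159.8 ± 56.3 and 249 ± 268 CPM. Of the 12 macrophage markers, 2 (FCGR1 and H2-AB1) were higher in IL10RAKO mice, and 1 (MERTK) was higher and 2 (ADGRE1 and CX3CR1) were lower in DKO mice. With the mean level of the fibroblast markers added to the fit as a covariate, 0 of 9 members passed against WT in either knockout, beside 29 and 61 of all genes, and this level did not overlap between WT and knockout mice either.

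Related proteins were followed through lists chosen for their roles. Of 8 tested S100 genes other than calprotectin, 1 (S100A11) was higher and 1 (S100A16) was lower in IL10RAKO mice. S100A11, which binds annexins, averaged 112 ± 21.5, 325 ± 90.2 and 308 ± 68.4 CPM in WT, IL10RAKO and DKO mice (adjusted p = 0.000387 and 0.000489). In DKO mice 1 was higher (S100A11) and 1 was lower (S100A10, log2 fold change -0.90, adjusted p = 0.00958), so that the family did not move together. Of 7 tested acute phase genes, 3 were higher and 0 lower in each knockout. These were SERPINA3G (19.4 ± 8.05, 384 ± 70.0 and 453 ± 70.8 CPM) and SERPINA3F (1.55 ± 1.24, 82.7 ± 12.4 and 92.9 ± 19.1 CPM), both protease inhibitors, and the haemoglobin binder HP (10.6 ± 4.89, 222 ± 134 and 205 ± 16.9 CPM in WT, IL10RAKO and DKO mice).

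Of 13 other antimicrobial genes tested, 3 were higher and 2 lower in IL10RAKO mice, and 4 were higher and 3 lower in DKO mice. The C-type lectins REG3B and REG3G, known from gut epithelium, were both higher in the knockouts. REG3B averaged 0.285 ± 0.335, 61.5 ± 55.6 and 81.7 ± 19.8 CPM (adjusted p = 0.000389 and 0.000237) and REG3G 0.206 ± 0.238, 27.2 ± 25.1 and 46.2 ± 10.7 CPM (adjusted p = 0.000454 and 0.000193) in WT, IL10RAKO and DKO mice. REG3B had 32 reads in IL10RAKO mouse 7 and 405 to 1749 in the other 3. WFDC21 was at 0.0119 ± 0.0239, 1.3 ± 1.57 and 2.37 ± 1.09 CPM and passed in both knockouts. RETNLA, a resistin-like protein of alternatively activated macrophages, fell from 338 ± 54.1 to 5.67 ± 6.14 and 0.173 ± 0.346 CPM (adjusted p = 0.000131 and 8.31e-06), and RNASE4 fell from 67.6 ± 6.39 to 29.8 ± 7.02 and 23.5 ± 10.4 CPM.

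Among 13 tested receptors and binding partners, 4 were higher and 3 lower in each knockout. TLR2 rose from 219 ± 19.6 to 755 ± 212 and 725 ± 125 CPM, and the formyl peptide receptor FPR2 rose from 8.98 ± 5.36 to 93.4 ± 48.5 and 96.6 ± 8.38 CPM. SLC22A17, described as a receptor for LCN2, fell from 8.44 ± 6.77 to 0.877 ± 0.533 and 1.98 ± 0.435 CPM (adjusted p = 0.00168 and 0.017), and the scavenger receptor CD36 fell from 166 ± 45.8 to 47.8 ± 32.9 and 46.6 ± 9.69 CPM. PLSCR1 rose from 47.3 ± 16.7 to 130.4 ± 20.8 and 129 ± 22.02 CPM, while PLSCR4 fell from 3.86 ± 0.722 to 0.703 ± 0.627 and 0.671 ± 0.403 CPM. TLR4, a receptor of calprotectin, did not pass (42.8, 43.9 and 45.1 CPM on average).

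Of 11 transcription factors tested, 4 were higher and 1 lower in each knockout. HIF1A rose from 193 ± 37.8 to 794 ± 159 and 821 ± 76.5 CPM, and CEBPB from 1577 ± 397 to 3734 ± 1198 and 3816 ± 1088 CPM (adjusted p = 0.00594 and 0.00459), whereas its relative CEBPD fell from 98.5 ± 15.6 to 56.5 ± 16.4 and 43.4 ± 5.77 CPM. NFKBIZ, a nuclear cofactor of NF-kB, rose in IL10RAKO mice (1135 ± 109 to 2108 ± 495 CPM, adjusted p = 0.0131), with 1757 ± 539.5 CPM in DKO mice (adjusted p = 0.0614). Of 10 cytokines known to induce these genes, 8 were higher in IL10RAKO and 7 in DKO mice, and 0 were lower. IL1A rose from 131 ± 32.98 to 2837 ± 926 and 2778 ± 851 CPM, IL6 from 9.75 ± 1.1 to 172 ± 114 and 166 ± 30.1 CPM, and IL1B from 2838 ± 317 to 12512 ± 3320 and 9823 ± 1893 CPM. Across these 14 lists, 0 genes passed between DKO and IL10RAKO mice.

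The genes most like each member within genotypes were found by Pearson correlation of log2 CPM over 12 libraries after removal of the genotype means. They are descriptions over libraries that share preparation, and for genes with few reads they follow a small number of mice. LYZ2 was most like NPC2 (r = 0.97), P4HA1 (0.95) and CTSL (0.94), and SAA3 like SDC1 (0.96), ROBO4 (0.94) and DPEP2 (0.92). SLPI was most like E230016M11RIK (0.93), GADD45A (0.93) and HSPA1L (0.92), LCN2 like LRG1 (0.96), RASSF1 (0.95) and RNF128 (0.92), and LYZ1 like HMOX1 (0.93), GM10389 (0.92) and CXCL3 (0.91). S100A8 was most like VMP1 (0.92), TIMM8B (0.91) and CLCA4B (0.89), S100A9 like WFDC21 (0.93), B230303A05RIK (0.92) and GM15056 (0.92), LTF like SMOX (0.87), JRKL (0.85) and IL23A (0.84), and NGP like 3110056K07RIK (0.93), DNAJA4 (0.87) and BCL2L11 (0.84). Among members, S100A8 and S100A9 (r = 0.86), S100A9 and NGP (0.86), LCN2 and SAA3 (0.84) and LTF with SAA3 and with NGP (0.79 each) were the closest pairs.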

How the data were processed

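Per the labels, STAR 2.5.1b aligned paired-end reads of SmartSeq v4 cDNA to mm10, and the authors deposited raw counts of reads per gene. How reads that align to several places, or strand, were handled is not given in the sources used here. The deposited edgeR pseudocounts, a score adjusted to a common library size, were used only to learn which 12 libraries the authors kept. Genotypes came from the labels, which give no batch or sex per mouse. Counts were filtered with filterByExpr (minimum count 10), scaled by TMM and tested with glmQLFit (deviance of edgeR 3) and glmQLFTest in edgeR 4.0.16 under R 4.3.3, with DESeq2 1.42.0 as an alternative. The fit was tested on simulated data. A floor of 3 reads was used for bounds. Floors and the exact intervals of NGP cover counting error only, and reads carry no molecular identifiers that would mark copies. The edgeR intervals also cover variation between mice. Replicates are separate mice, and no pair of libraries within WT, IL10RAKO or DKO looked duplicated (chi-square per degree of freedom at least 31.8). Pairs across genotypes were not checked. Positions come from GENCODE vM21 on GRCm38, the build of mm10. All 10 members are named, and from each list the genes named are at most the 3 with the smallest adjusted p in each direction in IL10RAKO against WT, or the 2 highest where none passed. SAA1, TLR4, LY6G, CD177, RETNLG, PADI4 and other marker genes named beside a count were chosen after their values were seen. The members and lists were chosen with earlier results of these data known. Bounds and spreads without single mice, and list sums without the most abundant gene, were added after the data were seen. Figures used matplotlib 3.10.9.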

Additional observations from a re-analysis of the deposited data

Results flagged for a closer look

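Within groups, the highest library stood apart from the others in 11 of 40 gene and group sets by Dixon's criterion, which chance exceeds in about 5% of sets. Sets with many 0 values pass it easily. The WT mice were counted both without and with mouse 11, and several sets share a mouse. The sets are thus not independent, and the 11 cannot be judged against the 5%. In IL10RAKO mice, mouse 2 stood apart for S100A8 (42.8 CPM, others 0.809 to 3.76), S100A9 (40.8 CPM, others 0.506 to 2.38), LTF (5.92 CPM, others 0.202 to 0.727) and NGP (10.2 CPM, others 0 to 0.278). In DKO mice, mouse 9 stood apart for LTF (18.1 CPM, others 6.43 to 7.4) and CAMP (1.06 CPM, others 0.386 to 0.494). In WT mice, mouse 13 stood apart for S100A8 (0.732 CPM, others 0), mouse 4 for NGP (0.143 CPM, others 0), and mouse 4 for LTF once WT mouse 11 was added (1.34 CPM, others up to 0.373). The S100A8 and NGP values also stood apart with WT mouse 11 added.

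The CCR2KO library, which entered no test, held more S100A8 (2.42 CPM, 49 reads), S100A9 (1.33 CPM, 27 reads) and SLPI (19.7 CPM, 400 reads) than any of the 4 WT libraries, whose highest values were 0.732, 0 and 11.2 CPM. With 1 mouse, this difference was not tested.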

How the results depend on the processing

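The members called against WT (5 in IL10RAKO, 7 in DKO mice) and all genes called (2076 and 2424, and 6 in DKO against IL10RAKO) stayed within 1.5 times of these counts under the other scalings, without a filter, with the deviance of edgeR 4, with WT mouse 11, with the epithelium covariate and in DESeq2, except that DESeq2 called 24 genes in DKO against IL10RAKO. DESeq2 gave LTF no adjusted p in any comparison and CAMP none in DKO against IL10RAKO, and its 7 members in DKO include CAMP. With 10 reads required in every library, 5 members could be tested and 2 and 3 passed. With only the 2 genotypes compared, 3 of 6 tested passed in IL10RAKO. With mature neutrophil, fibroblast, or (chosen after seeing the data, because they were higher in the knockouts) CXCR2, MMP8 and HDC levels as a covariate, 311, 29 and 0 genes were called in IL10RAKO and 155, 61 and 2 in DKO against WT, with 0 members in each. At an unadjusted edgeR p under 0.05 these 3 covariates left 2, 2 and 0 members and 1730, 791 and 618 genes in IL10RAKO, and 2, 3 and 0 members and 1689, 1076 and 657 genes in DKO against WT.

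Log2 fold changes against WT turned for IL10RAKO and DKO as follows. With the mature neutrophil covariate LCN2 gave -3.04 and -2.50, LYZ2 -0.34 and -0.39, and SAA3 -0.023 in IL10RAKO. With the fibroblast covariate LCN2 gave -0.091 and LTF -1.97 in IL10RAKO. With CXCR2, MMP8 and HDC, S100A8 gave -0.48 and -0.19, LCN2 -4.69 and -4.06, SAA3 -2.88 and -2.41, LTF -4.06 and -1.42, and NGP -1.87 in IL10RAKO. In DKO against IL10RAKO the neutrophil covariate turned S100A8 (-0.0016), S100A9 (-0.12) and LYZ2 (-0.048), and the epithelium covariate S100A9 (-0.010) and LYZ2 (-0.023). With IL10RAKO mouse 2 and DKO mouse 3 both left out, chosen after seeing the data for their member and MPO reads, LTF gave -0.036 in IL10RAKO against WT and SLPI 0.012 in DKO against IL10RAKO. The cause was not tested.

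Leaving out each mouse in turn gave 4 to 5, 5 to 7 and 0 to 1 members and 1485 to 2554, 1691 to 2995 and 4 to 10 genes in the 3 comparisons. The 1 was NGP without IL10RAKO mouse 2, which left 4 NGP reads in mouse 1 and 0 in mice 7 and 8. In IL10RAKO against WT, LTF ranged from -0.043 to 3.41, SLPI from 3.72 to 4.74 and SAA3 from 2.49 to 3.67, both lowest without mouse 2. In DKO against IL10RAKO, S100A8 ranged from -0.10 to 2.71, S100A9 from -0.30 to 3.04, SLPI from -0.88 to 0.13 and LYZ2 from -0.012 to 0.34. The deviance of edgeR 4 also ended the NGP call in IL10RAKO (adjusted p = 0.0832). Library totals without TMM moved the median of all genes from -0.07 to -0.38 in IL10RAKO and from -0.06 to -0.32 in DKO mice. No paired analysis was possible because the groups are different mice whose numbers are not shared between genotypes.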

Other observations

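WT mouse 11 had 0 reads on S100A8, S100A9, LCN2, LTF, CAMP and NGP, and 1.76 CPM of SLPI, 2.27 of SAA3, 155.9 of LYZ1 and 7689 of LYZ2. Its epithelial markers summed to 5232 CPM, beside 141.6 to 1770 CPM in the 4 WT mice of the fit. CCR2KO mouse 6 had 1.28 CPM of LCN2, 10.7 of SAA3, 20.9 of LYZ1 and 5138 of LYZ2, and LYZ1 was below all 5 WT mice.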
